A study of Arabidopsis thaliana with 30 samples.

Results

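The comparison described here set eur1-11 petioles against WT petioles at 72 h after leaf excision, and its members were the 6 libraries of that time, 3 of each genotype, out of 30 in the series. They were chosen by their genotype and time, and libraries of equal replicate number were paired. The eur1-11 line was obtained by chemical (EMS) mutagenesis of Arabidopsis thaliana Col carrying the ORE1::LUC reporter, and it has a stop codon in EAR1, also named EUR1. WT was the unmutagenised Col line with the same ORE1::LUC reporter, so the transgene and the excision were common to both groups. In both, the 4th rosette leaf of 21-day-old plants was detached at the petiole, floated on MES buffer under continuous white light, and the petiole region was taken for RNA sequencing. The study sampled this tissue every 24 h up to 96 h, asking how EAR1 bears on the genes of root formation at the cut petiole.

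eur1-11 is 1 mutagenised line, so the EAR1 change and any other change that the line carries cannot be told apart. The labels do not say whether replicates came from different plants or harvests, so the p-values reflect only how far these libraries differ. In the study's model the replicate number stood for a batch whose nature was not stated. Gene counts were 39026452, 36453170 and 36546712 in the eur1-11 libraries and 40797148, 23229141 and 22482318 in the WT libraries. Replicate 3 stood apart from replicates 1 and 2 in both genotypes. The median coefficient of variation across genes was 0.0508 between replicates 1 and 2 of eur1-11 and 0.0495 between those of WT, against 0.0677 to 0.0848 for pairs that included replicate 3. Chloroplast genes took 26.0% ± 0.751 of the counts in eur1-11 and 26.0% ± 0.516 in WT (SD, n = 3 each). In whole petioles, fewer cells of a type and less RNA per cell cannot be told apart.

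EAR1 restrains signalling by abscisic acid (ABA), the hormone of water shortage and dormancy, by raising the activity of the PP2C phosphatases that hold back the SnRK2 kinases. A detached leaf can grow roots from its petiole after auxin made in the blade has collected near the cut. The same days bring wounding, loss of supply from the root and ageing of the blade, so genes of nutrient shortage, defence and senescence are also in play.

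EAR1 (AT5G22090) lies on chromosome 5 at 7314583 to 7321743, minus strand, in the RefSeq TAIR10.1 annotation. Its coding sequence lies in 1 exon and encodes 463 amino acids. The study placed the eur1-11 nonsense change at tryptophan codon 112, and the reference stretch around that codon is shown to locate the lesion, with the codon in capitals.
EAR1 codon 112, chr5:7316059-7316061, minus strand: caatccgatgtaTGGagctcgattttg
EAR1 was read at 231.9, 238.7 and 195.8 CPM in eur1-11 and at 267.1, 282.9 and 259.9 CPM in WT, where CPM is counts scaled to a common library size by TMM. Each eur1-11 library lay below every WT library. The log2 fold change of EAR1, here and throughout eur1-11 over WT, was -0.29 ± 0.13 (SE) and did not pass the test (edgeR, adjusted p = 0.343). EAR1 was also lower at 0, 24, 48 and 96 h, and of these times it passed only at 0 h (-0.45; edgeR, adjusted p = 0.0407). Counts do not show a point change, and part of the gene overlaps AT5G03385, so the EAR1 level is a weak check of the genotype labels.

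At 72 h, 386 of 21472 tested genes (1.8%) differed between the genotypes at an adjusted p under 0.05 in edgeR. Of these, 237 were higher in eur1-11 (1.1% of tested genes) and 149 were lower (0.694%). The higher genes had a median log2 fold change of 1.26, and in 146 of them it was at least 1. The lower genes had a median of -0.67, and 40 of them had a log2 fold change of -1 or less. The median over all tested genes was -0.01. All 386 had the same direction in the 3 pairs, and in 288 the genotypes did not overlap, against 15.9% of all tested genes. Both follow in part from calling genes on these same libraries, here and for the called list members below. The number of calls rests on each replicate: it was 82 without replicate 1, 94 without replicate 2 and 276 without replicate 3. It was 66 without the replicate block and 103 with 1 replicate factor common to all times. All 386 kept their direction in those fits. These fits reuse the same libraries, and the 3 pairs already shared that direction, so kept signs add no support. Of the 386, 30 passed in every one of the 14 alternatives that were run.

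**Figure D1:**
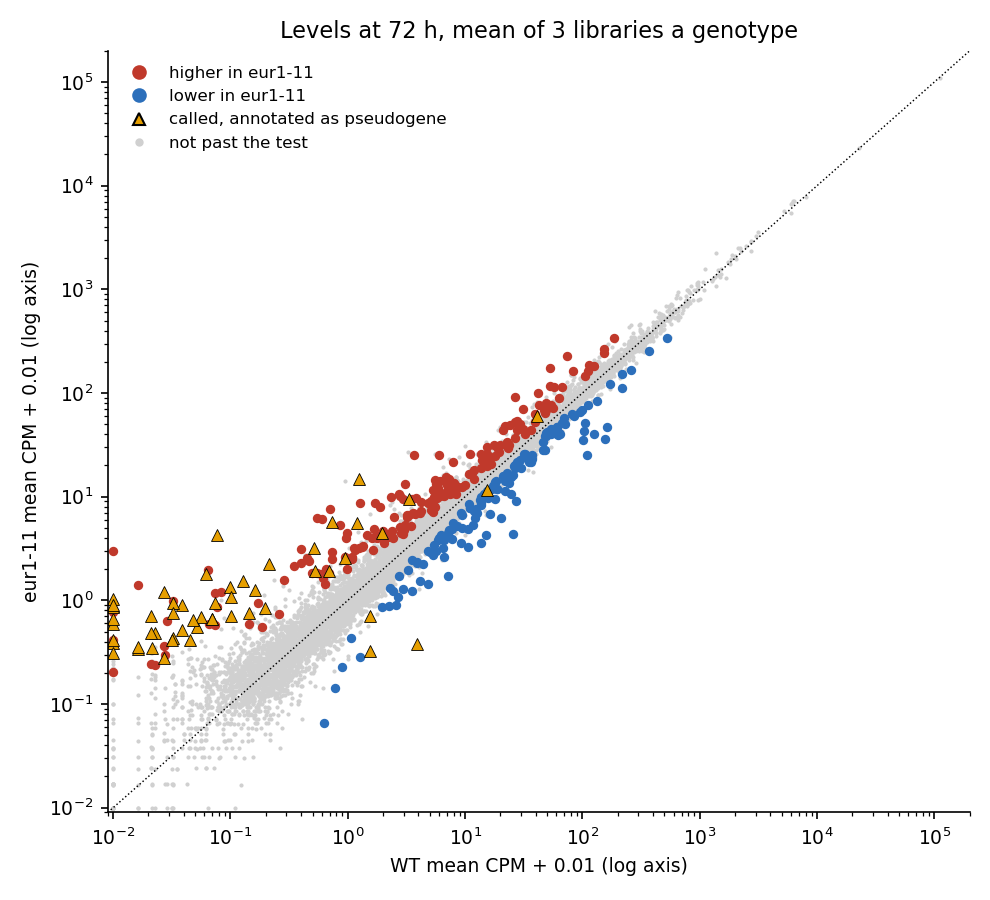
Mean TMM-scaled CPM plus 0.01 at 72 h in eur1-11 (vertical, log axis) and in WT (horizontal, log axis), 1 point a gene, each the mean of 3 libraries. Red points are the genes higher in eur1-11, blue points those lower, triangles called genes annotated as pseudogenes, grey points genes that did not pass, and the dotted line marks equal levels. Most triangles sit at the left, where the WT level is under 1 CPM.

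Genes that petioles of WT hardly expressed made up much of the higher group, a pattern picked out after the values were seen and given without a test. Among the 237 higher genes, 90 had a WT mean under 1 CPM, as did 16.2% of tested genes. Among the 149 lower genes, 11 had an eur1-11 mean under 1 CPM. Of 289 tested genes annotated as pseudogenes, 50 were higher in eur1-11 and 4 were lower, so that pseudogenes were 21.1% of the higher genes and 1.35% of the tested genes. The filter could admit a gene through the libraries of 1 group alone. Genes nearly silent in WT could thus be tested only where eur1-11 read them, which can raise the shares given here. Of the 50, 45 had a WT mean under 1 CPM. Many Arabidopsis pseudogenes are remnants of transposable elements, which DNA methylation and small RNAs normally keep silent. The 50 had a median level of 0.844 CPM in eur1-11 and 0.0397 CPM in WT. Of them 49 did not overlap between genotypes, against 15.9% of all tested genes. Both values follow in part from picking genes that were called higher. Of the same 50 genes, 13 were higher in eur1-11 at 0 h, 22 at 24 h, 34 at 48 h and 43 at 96 h. Over all tested genes 6.92, 1.6, 1.56 and 1.72% were higher at those times. Of the 50, 39 had positive values at all of those times. The 50 were picked by their call at 72 h, so these counts do not show a rise with time. Protein-coding genes numbered 178 higher and 139 lower among 20407 tested.

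The higher genes with 0 counts in all 3 WT libraries numbered 14, and 9 of them were pseudogenes. Such genes entered the test through other groups and could only come out higher. AT3G05170, annotated as a member of the phosphoglycerate mutase family, was read at 3.14, 2.94 and 2.91 CPM in eur1-11 and at 0 in WT, at least 112-fold higher against a floor of 3 counts over the WT group. The neighbours AT3G55900 and AT3G55910 were higher by at least 29.5-fold and 28.4-fold. The SADHU3-1 and SADHU5-2 loci, named for a family of retroposons, were higher by at least 14.1-fold and 11.4-fold. All 14 lay between 28 and 434 counts over the eur1-11 group.

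The 12 largest increases among genes with at least 5 CPM included several loci with no assigned role. AT3G30393, an annotated pseudogene, was read at 21.0, 17.5 and 6.24 CPM in eur1-11 against 1.498, 1.551 and 0.678 CPM in WT (3.57 on the log2 scale). AT1G59930 encodes a MADS-box family protein and stood at 8.003, 9.19 and 5.71 CPM in eur1-11 against 0.97, 0.79 and 0.31 CPM in WT (3.45). It is near-identical to its neighbour AT1G59920, also higher by 2.65, so reads of the pair may be split. AT5G41830, an RNI-like protein gene, stood at 7.32, 6.44 and 4.29 CPM in eur1-11 against 0.59, 0.33 and 0.85 CPM in WT (3.36). In these genes the lowest eur1-11 library exceeded the highest WT library by several fold, and each passed in all 14 alternatives.

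The largest decrease under the same rule was in AT2G01422, a non-coding RNA gene next to the auxin exporter gene PIN4. AT2G01422 was read at 5.29, 3.34 and 4.56 CPM in eur1-11 against 25.7, 27.0 and 23.7 CPM in WT (log2 fold change -2.54 ± 0.18). It was lower at each of the 5 times and in all 14 alternatives. AT3G60170, a pseudogene below the 5 CPM limit that was singled out after its values were seen, had a larger change, with 0.38, 0.46 and 0.25 CPM in eur1-11 against 3.68, 3.23 and 4.71 CPM in WT (-3.38 ± 0.26).

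Genes of sulfur shortage were higher in eur1-11. When sulfate runs short, Arabidopsis raises small LSU proteins, the glutathione-degrading enzyme GGCT2;1, vacuolar sulfate exporters, and SDI1, a repressor of glucosinolate synthesis. Of 15 tested members of the list, 8 were higher and 0 lower, against 1.1% higher among all tested genes. The median was 0.66, and all but LSU4, at 0.00, had log2 fold changes of at least 0.03. LSU1 was read at 11.9, 10.2 and 3.98 CPM in eur1-11 and at 2.2, 1.95 and 0.95 CPM in WT (log2 fold change 2.33 ± 0.21; edgeR, adjusted p = 2.25e-05). SDI1 was read at 17.98, 16.24 and 5.48 CPM in eur1-11 and at 4.85, 3.398 and 0.92 CPM in WT (2.16 ± 0.27; adjusted p = 0.000723). GGCT2;1 stood at 5.37, 5.49 and 2.53 CPM in eur1-11 and at 1.1, 0.76 and 1.09 CPM in WT (2.14 ± 0.36; adjusted p = 0.00624). In all 3 genes each eur1-11 library lay above every WT library, although replicate 3 of LSU1 and SDI1 was the lowest in both genotypes.

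LSU3, which lies beside LSU1 on chromosome 3, rose by 1.52 ± 0.21 and LSU2 by 0.81 ± 0.11, without overlap. SHM7, a serine hydroxymethyltransferase, rose by 0.66 ± 0.10. The vacuolar sulfate exporters SULTR4;2 and SULTR4;1 rose by 0.65 ± 0.11 and 0.39 ± 0.09. In the last 3 genes the groups overlapped, because replicate 3 of eur1-11 fell within the WT range, while each pair differed the same way. The APS reductases APR1, APR2 and APR3, which reduce activated sulfate, had log2 fold changes of 0.58, 0.43 and 0.76 and did not pass (adjusted p = 0.0792, 0.0678 and 0.0615). The root sulfate importer SULTR1;2 (0.65) and the glucosinolate-degrading BGLU28 (3.01 ± 0.72; adjusted p = 0.058) did not pass either. The list count was 4 without replicate 1, 5 without replicate 2, 8 without replicate 3, 4 with a block common to all times and 2 without the replicate block, where LSU1 and LSU3 passed.

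**Figure D2:**
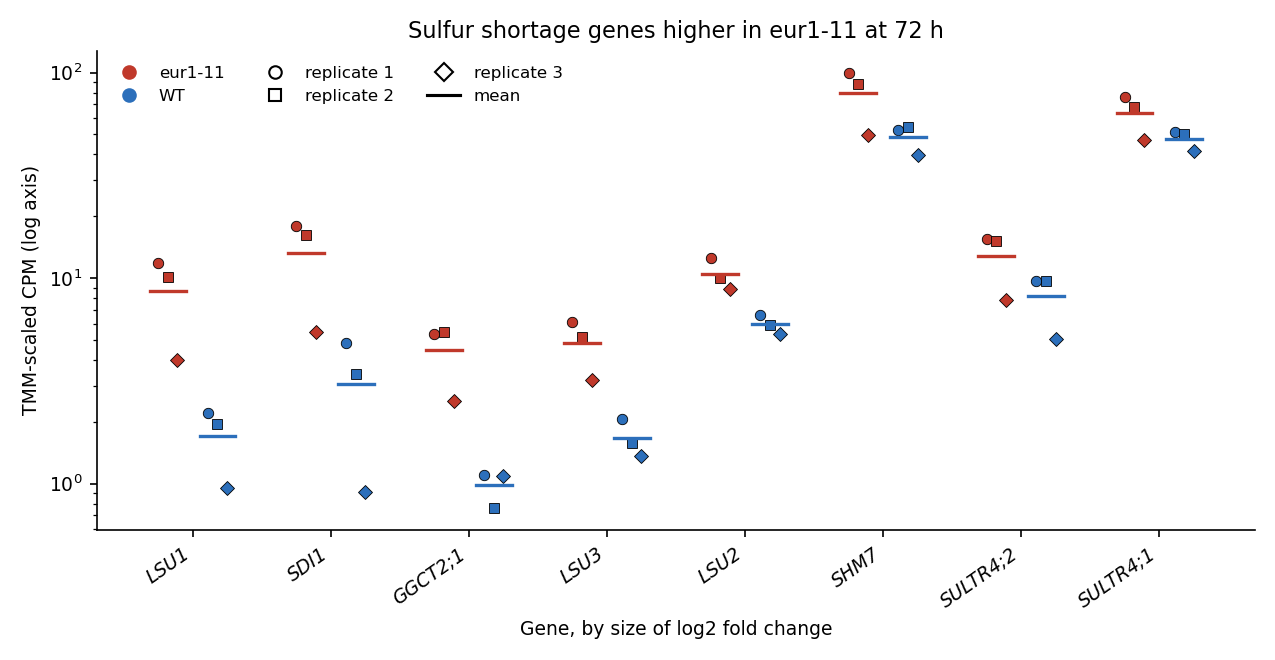
TMM-scaled CPM (log axis) of the 8 sulfur shortage genes that were higher at 72 h, with eur1-11 in red to the left of WT in blue, 1 symbol a library by replicate number and a bar at the mean. LSU1, SDI1, GGCT2;1, LSU3 and LSU2 do not overlap between genotypes, while SHM7, SULTR4;2 and SULTR4;1 do through replicate 3.

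The promoters of the 3 called sulfur shortage genes with the largest changes and of the ABA-responsive gene COR15A are shown with short motifs marked. Each of them carries ACGTG, and they differ in the other motifs. Each is the 250 bases before the annotated start in TAIR10.1, 5′ to 3′ on the gene's strand. Capitals mark ACGTG, the core that ABA-responsive bZIP factors bind, and GAGAC, the core of the sulfur-responsive element, or, in COR15A, ACGTG and the cold- and drought-responsive core CCGAC, on either strand.
LSU1, chr3:18375941-18376190, minus strand: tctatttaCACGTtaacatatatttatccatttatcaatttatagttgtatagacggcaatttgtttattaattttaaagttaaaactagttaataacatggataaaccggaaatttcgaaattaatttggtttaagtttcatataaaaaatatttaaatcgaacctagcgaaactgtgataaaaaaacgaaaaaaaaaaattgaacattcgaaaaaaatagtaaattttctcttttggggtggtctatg
SDI1, chr5:19807854-19808103, minus strand: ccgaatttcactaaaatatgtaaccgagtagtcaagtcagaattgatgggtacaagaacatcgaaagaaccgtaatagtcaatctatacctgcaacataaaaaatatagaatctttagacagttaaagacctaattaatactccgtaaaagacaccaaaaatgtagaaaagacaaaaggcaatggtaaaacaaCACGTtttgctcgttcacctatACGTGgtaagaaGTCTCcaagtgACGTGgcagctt
GGCT2;1, chr5:9164885-9165134, minus strand: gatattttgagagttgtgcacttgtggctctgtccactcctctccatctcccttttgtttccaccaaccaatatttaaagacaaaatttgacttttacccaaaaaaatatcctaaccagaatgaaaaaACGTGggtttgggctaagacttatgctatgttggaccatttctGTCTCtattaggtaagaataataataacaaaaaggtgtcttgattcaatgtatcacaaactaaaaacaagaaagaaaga
COR15A, chr2:17712331-17712580, minus strand: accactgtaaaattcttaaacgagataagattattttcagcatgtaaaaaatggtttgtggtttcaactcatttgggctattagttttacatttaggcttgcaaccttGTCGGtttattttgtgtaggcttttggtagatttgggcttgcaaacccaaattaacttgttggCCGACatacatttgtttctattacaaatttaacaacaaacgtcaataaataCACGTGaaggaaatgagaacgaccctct
LSU1 had 1 ACGTG and 0 GAGAC, SDI1 had 3 and 1, and GGCT2;1 had 1 of each. In COR15A ACGTG was found in 1 place, the palindrome CACGTG, which reads the same on both strands, and CCGAC in 2. In the 250-base windows ACGTG was found in 90 of the 237 genes higher in eur1-11 (38%) and in 38 of the 149 lower ones (25.5%), against 23.5% of tested genes and 20.8% of all annotated genes. Among protein-coding genes it was in 39.9% of those higher and in 23.7% of those tested. By list, ACGTG was in 40% of sulfur shortage genes, 62.5% of ABA-responsive genes, 59.4% of jasmonate genes and 23.1% of low oxygen genes. It was also in 47.4% of aliphatic glucosinolate genes, which were lower in eur1-11, so the motif was not particular to higher genes. GAGAC was in 26.7% of sulfur shortage genes, and in 24.1% of the higher genes against 25.4% of tested genes and 26% of all genes. CCGAC was in 11.4% against 12.8% and 12%, CATTGAA in 6.33% against 5.42% and 5.35%, GCCGCC in 3.8% against 1.97% and 1.95%, and TTGAC in 39.2% against 45.2% and 43.9%. CACGTG, which holds ACGTG, was in 10.5% against 7.12% and 5.39%. These shares describe letters in a window and were not tested.

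Genes of aliphatic glucosinolate synthesis were lower in eur1-11. Glucosinolates are sulfur-rich defence compounds, and the aliphatic ones are built from methionine by chain elongation, formation of the core and side-chain changes. Of 19 tested members 11 were lower and 0 higher, against 0.694% lower among all tested genes. All 19 log2 fold changes were negative, and the median was -1.24. The summed level of the list ran from 605.4 to 742.3 CPM in eur1-11 and from 1193 to 1390 CPM in WT.

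Several called members act in chain elongation. BCAT4, the aminotransferase that opens the pathway, was read at 22.26, 28.5 and 24.98 CPM in eur1-11 and at 124.6, 118.1 and 83.2 CPM in WT (log2 fold change -2.09 ± 0.41; edgeR, adjusted p = 0.0145). MAM1, the condensing enzyme, was read at 29.5, 36.7 and 54.3 CPM in eur1-11 and at 145.9, 125.7 and 107.0 CPM in WT (-1.69 ± 0.36; adjusted p = 0.0276). The isomerase subunit IPMI2 stood at 4.77, 5.30 and 8.62 CPM in eur1-11 against 18.5, 21.7 and 20.5 CPM in WT (-1.74 ± 0.28; adjusted p = 0.00366). The related IPMI1 (-1.64 ± 0.31), the dehydrogenase IMD1 (-1.55 ± 0.33) and the plastid transporter BAT5 (-1.24 ± 0.28) also fell. None of these genes overlapped between the genotypes, and none of BCAT4, MAM1, IPMI2, IPMI1 and IMD1 passed without replicate 1 or without replicate 2.

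CYP79F1, a cytochrome P450 that converts elongated methionine to aldoximes, was read at 28.4, 36.2 and 42.6 CPM in eur1-11 and at 180.2, 164.9 and 119.4 CPM in WT (-2.11 ± 0.38; adjusted p = 0.00972). Its neighbour and close relative CYP79F2 fell by 1.27 on the log2 scale and CYP83A1, the next enzyme, by 0.97. The side-chain gene AOP2, annotated in the reference as a transcribed pseudogene, averaged 4.22 ± 0.121 CPM in eur1-11 and 14.9 ± 4.29 CPM in WT (SD, n = 3 each; log2 fold change -1.79 ± 0.39). Of the MYB activators of the pathway, MYB76 fell by 2.14 ± 0.49 from low levels, to 0.362, 0.317 and 0.147 CPM in eur1-11 against 1.71, 1.72 and 0.373 CPM in WT. MYB29 had a log2 fold change of -1.21 (adjusted p = 0.0912) and MYB28 one of -0.17 (adjusted p = 0.663), and neither passed. All 11 lower members were free of overlap between genotypes, as were 15.9% of all tested genes.

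Among the 12 largest decreases outside the list were HMT3 and GSTU20. HMT3, which makes methionine from homocysteine, stood at 1.41, 2.58 and 1.09 CPM in eur1-11 against 7.36, 9.44 and 4.44 CPM in WT (-2.09 ± 0.39; edgeR, adjusted p = 0.0125). GSTU20, a glutathione transferase, stood at 34.6, 48.9 and 56.1 CPM in eur1-11 against 191.2, 183.9 and 113.6 CPM in WT (-1.80 ± 0.31; adjusted p = 0.00786). Of 16 tested genes of indole glucosinolate and camalexin synthesis, which start from tryptophan, 0 passed in edgeR, and their median was 0.30. In that list 7 of 16 had an unadjusted p under 0.05, against 2919 of 21472 tested genes, and 0 were called by DESeq2. The values nearest to passing there were 0.70 for IGMT1 (adjusted p = 0.111) and 0.78 for CYP81F2 (adjusted p = 0.207). The number of lower aliphatic members was 0 without replicate 1, 0 without replicate 2 and 8 without replicate 3. It was 0 with a block common to all times and 0 without the replicate block.

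**Figure D3:**
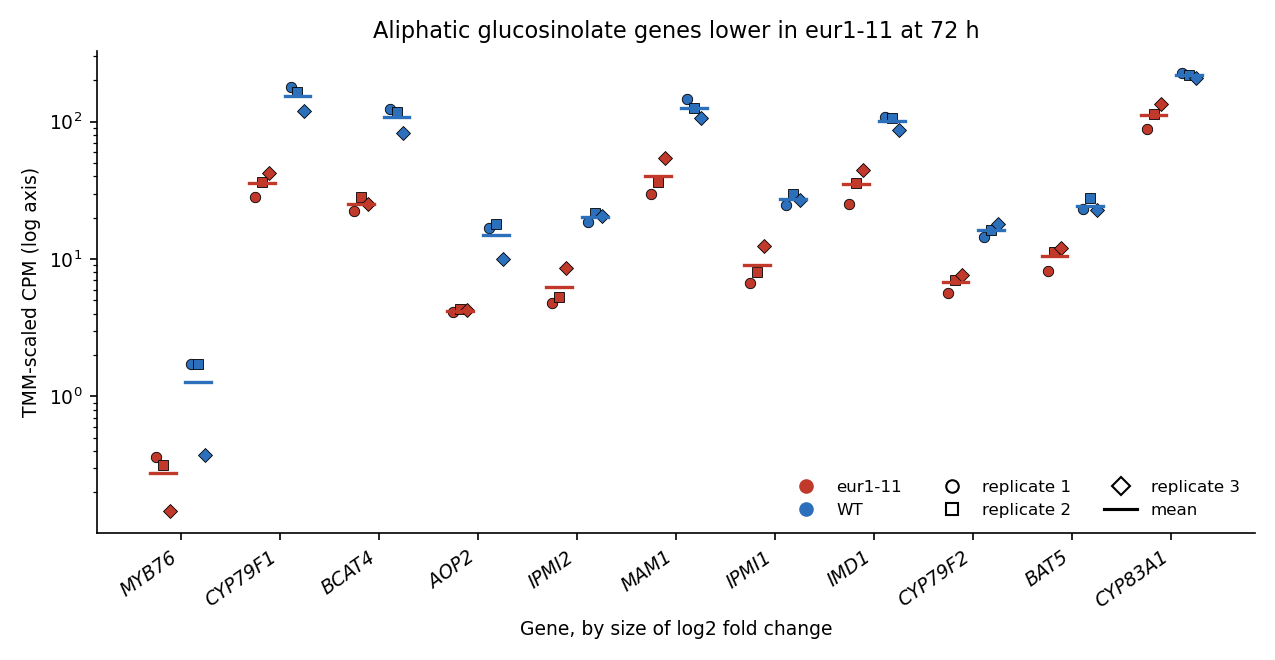
TMM-scaled CPM (log axis) of the 11 aliphatic glucosinolate genes that were lower at 72 h, with eur1-11 in red to the left of WT in blue, 1 symbol a library by replicate number and a bar at the mean. In every gene the 3 eur1-11 libraries lie below the 3 WT libraries.

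Genes of low oxygen and fermentation changed in both directions. Of 13 tested members 4 were lower and 1 higher, with a median of -0.16 and no overlap between genotypes in any of the 5. Among all tested genes 0.694% were lower, 1.1% higher and 15.9% without overlap. PDC1, a pyruvate decarboxylase of ethanol fermentation, was read at 3.34, 5.24 and 2.197 CPM in eur1-11 and at 15.7, 13.3 and 11.8 CPM in WT (log2 fold change -1.98 ± 0.26; edgeR, adjusted p = 0.000984). SUS4, a sucrose synthase, was read at 2.78, 5.03 and 1.88 CPM in eur1-11 and at 9.92, 11.8 and 10.1 CPM in WT (-1.79 ± 0.22; adjusted p = 0.000663). The desaturase gene SAD6 fell by 1.79 ± 0.26 and the alcohol dehydrogenase gene ADH1 by 0.68 ± 0.12. PDC2, the second pyruvate decarboxylase, was instead higher, at 241.7, 179.6 and 131.2 CPM in eur1-11 against 129.6, 113.7 and 97.5 CPM in WT (0.66 ± 0.15; adjusted p = 0.0369). Other members did not pass, among them PCO2 (-0.87; adjusted p = 0.12), SUS1 (-0.32), LBD41 (-0.16), HB1 (-0.01) and HRE1 (0.01). Leaving out replicate 1 left 2 lower members, and 0 passed without the block, where PDC1 and SUS4 had adjusted p of 0.059 and 0.0641.

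Repressors of flowering were higher and a promoter of flowering was lower. FLC and its MAF relatives are MADS-box proteins that hold back FT and SOC1, which bring on flowering. MAF5 was read at 8.22, 9.02 and 8.77 CPM in eur1-11 and at 0.83, 1.29 and 1.63 CPM in WT (log2 fold change 2.85 ± 0.24; edgeR, adjusted p = 1.15e-05). FLC was read at 3.599, 3.718 and 4.73 CPM in eur1-11 and at 0.51, 1.06 and 1.29 CPM in WT (2.15 ± 0.33; adjusted p = 0.00267). MAF4, next to MAF5 on chromosome 5, stood at 4.91, 4.01 and 4.50 CPM in eur1-11 against 1.76, 2.41 and 1.66 CPM in WT (1.22 ± 0.17; adjusted p = 0.00185). SOC1 stood at 4.46, 4.63 and 5.80 CPM in eur1-11 against 9.10, 7.62 and 11.2 CPM in WT (-0.90 ± 0.12; adjusted p = 0.00116). The groups did not overlap in any of the 4, which were the called members of 9 tested. Among all tested genes 1.8% were called and 15.9% did not overlap. The rest ranged narrowly, with -0.12 for SVP, -0.04 for MAF2, 0.06 for AGL24, 0.18 for FLM and 0.19 for MAF3. FLC overlaps AT5G01675, and without replicate 1 only MAF5 of the higher genes passed, with adjusted p of 0.0596 for FLC and 0.0511 for MAF4. Without the replicate block FLC and SOC1 did not pass, and with a block common to all times SOC1 did not.

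Jasmonate is the hormone of wounding, and with ethylene it drives plant defensins through the factor ORA59. Of 32 tested jasmonate genes 3 were higher and 0 lower, against 1.1% higher among all tested genes, and the median was 0.41. ORA59 was read at 52.8, 40.5 and 39.5 CPM in eur1-11 and at 23.3, 18.5 and 20.7 CPM in WT (log2 fold change 1.08 ± 0.24; edgeR, adjusted p = 0.0308), without overlap. AOC2, an enzyme of jasmonate synthesis, was read at 150.1, 129.6 and 59.5 CPM in eur1-11 and at 79.1, 57.4 and 35.7 CPM in WT (0.95 ± 0.18; adjusted p = 0.0125). The defensin gene PDF1.2 was read at 63.7, 8.62 and 3.91 CPM in eur1-11 and at 6.18, 3.36 and 1.32 CPM in WT (2.33 ± 0.51; adjusted p = 0.0318). Both AOC2 and PDF1.2 overlapped between genotypes, and the PDF1.2 value in replicate 1 of eur1-11 was several fold above all others. The related PDF1.2b stood at 15.1, 1.5 and 2.11 CPM in eur1-11 against 0.70, 0.56 and 0.34 CPM in WT (3.26 ± 0.65; adjusted p = 0.0167). Without replicate 1 the log2 fold changes were 1.44 for PDF1.2 (adjusted p = 0.47) and 1.98 for PDF1.2b (adjusted p = 0.411). Neither defensin passed in DESeq2 (adjusted p = 0.0675 for PDF1.2 and 0.118 for PDF1.2b). LOX2 (0.74), JAZ8 (0.85), VSP2 (1.02) and ERF1 (1.12) did not pass, and the list count was 0 without replicate 1, 0 without replicate 2, 2 without replicate 3, and 0 without the block or with a block common to all times.

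Of 18 tested genes of flavonoid and anthocyanin synthesis 2 were higher and 0 lower, with a median of 0.93. The share higher among all tested genes was 1.1%. TT8, a bHLH factor that switches on the late enzymes, stood at 2.53, 2.05 and 0.86 CPM in eur1-11 against 0.83, 0.73 and 0.03 CPM in WT (log2 fold change 1.85 ± 0.42; edgeR, adjusted p = 0.0369). MYB113, an anthocyanin activator, stood at 13.8, 11.2 and 3.47 CPM in eur1-11 against 5.59, 2.48 and 2.54 CPM in WT (1.34 ± 0.31; adjusted p = 0.0456). TT8 did not overlap between genotypes and MYB113 did. The enzymes CHS (adjusted p = 0.0548), LDOX (1.84; adjusted p = 0.0679), UGT79B1 (1.57), TT19 (1.54) and DFR (1.43) had positive values that did not pass, and LDOX shares near-identical sequence with AT4G22870. Leaving out replicate 1, 2 or 3 left 0, 0 and 1 members, and 0 passed without the block or with a block common to all times.

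In the 5 lists of the ABA pathway, in which EAR1 acts, edgeR called 1 of 52 tested genes (1.92%), close to the 1.8% of all tested genes. In edgeR 0 of 9 receptor genes, 0 of 7 clade A PP2C genes, 0 of 9 kinase and bZIP genes and 0 of 11 genes of ABA synthesis and breakdown passed. Their medians were 0.15, 0.12, 0.01 and -0.18, and DESeq2 called 0 in each. The numbers at an unadjusted p under 0.05 were 2, 1, 0 and 1, against 2919 of 21472 tested genes. Values nearest to passing were -0.35 for the receptor PYR1 (adjusted p = 0.109), 0.80 for PYL6, -0.31 for PP2CA, 0.28 for ABI2, -0.22 for GBF3, 0.12 for ABF4, -0.79 for CYP707A2 and -0.15 for AAO3. Of 16 ABA-responsive genes 1 was higher and 0 lower, and the median was 0.35. That gene was COR15A, a chloroplast cryoprotectant, at 2.81, 3.95 and 2.03 CPM in eur1-11 against 1.08, 0.89 and 0.20 CPM in WT (log2 fold change 1.96 ± 0.37; edgeR, adjusted p = 0.0125). The groups did not overlap, and COR15A did not pass without replicate 2 (adjusted p = 0.141) or without replicate 3 (adjusted p = 0.0503), nor without the block (0.31) or with a block common to all times (0.313). Its paralog COR15B (1.49; adjusted p = 0.0527), KIN2 (0.84) and COR47 (-0.34; adjusted p = 0.0517) did not pass in edgeR. Of the 16 ABA-responsive genes DESeq2 called 3 higher and 1 lower, where it called 552 of 21472 tested genes. The fit of only the 72 h libraries called 3 higher and 0 lower, where it called 617 of 20427.

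Among 18 rapid stress genes 2 were lower and 0 higher, against 0.694% lower and 1.1% higher among all tested genes. CBF1, an activator of cold-responsive genes such as COR15A, stood at 0.50, 0.74 and 1.38 CPM in eur1-11 against 1.59, 1.12 and 3.93 CPM in WT (log2 fold change -1.31 ± 0.24; edgeR, adjusted p = 0.00963). Its close relative CBF2 stood at 1.749, 2.197 and 5.59 CPM in eur1-11 against 5.82, 4.39 and 9.02 CPM in WT (-1.11 ± 0.21; adjusted p = 0.0138). Both overlapped between genotypes because replicate 3 was the highest library of each group, while each pair was lower in eur1-11. Without the replicate block neither passed (adjusted p = 0.926 for CBF1 and 1.0 for CBF2), nor did they with a block common to all times (0.621 and 0.792) or without replicate 1 (0.128 and 0.211). CBF1 did not pass without replicate 3 (0.104) and CBF2 did not without replicate 2 (0.085).

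Of the auxin lists, transport held the called genes. Of its 15 tested members 2 were higher, against 1.1% of all tested genes, and the median was -0.01. PIN4, an auxin exporter, was read at 30.9, 31.2 and 32.7 CPM in eur1-11 and at 24.0, 23.2 and 23.8 CPM in WT (log2 fold change 0.41 ± 0.07; edgeR, adjusted p = 0.00813). ABCB4, another auxin transporter, was read at 279.2, 278.1 and 163.8 CPM in eur1-11 and at 152.5, 170.4 and 135.2 CPM in WT (0.62 ± 0.14; adjusted p = 0.0343). PIN4 was free of overlap with little spread within either genotype, and ABCB4 overlapped through replicate 3. Neither passed without replicate 1 (adjusted p = 0.061 for PIN4 and 0.353 for ABCB4) or without replicate 2 (0.0825 and 0.261), or without the block or with a common one, and PIN4 did not pass without replicate 3 (0.0502).

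Of 11 auxin synthesis genes and 25 early response genes 0 passed in edgeR, with medians of 0.00 and 0.27. At an unadjusted p under 0.05 there were 2 and 3 of them, against 2919 of 21472 tested genes. YUC8, which makes auxin in the wounded leaf, stood at 1.83, 1.86 and 2.302 CPM in eur1-11 against 1.71, 1.39 and 3.42 CPM in WT (log2 fold change -0.04; adjusted p = 0.981). YUC9 stood at 0.14, 0.15 and 0.15 CPM in eur1-11 against 0.27, 0.20 and 0.14 CPM in WT, and WOX11, a factor of root founder cells, at 1.35, 1.098 and 2.26 CPM in eur1-11 against 0.91, 1.29 and 2.95 CPM in WT. Both overlapped between genotypes and did not pass (adjusted p = 0.807 and 0.98), and PIN2 was too low to be tested. IAA2 (0.44; adjusted p = 0.0592), GH3.5 (0.34), ASA1 (0.48) and NIT3 (0.40) were nearest to passing, and IAA2 was the 1 gene of both lists that DESeq2 called (adjusted p = 0.00795).

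Of 28 tested root regeneration genes compiled by the study 0 passed in edgeR, and their median was -0.05. The 6 wound and regeneration factors, with ERF115 at 0.64 and RAP2.6 at 0.87, and the 41 cell cycle genes also held 0 that passed. In the cell cycle list 35 of 41 values were negative, the median was -0.17, and CYCD4;1 (-0.51) and CYCB1;3 (-0.47) were nearest to passing. Of 21 senescence genes 0 passed. At an unadjusted p under 0.05 there were 3 of 28 root regeneration, 2 of 6 wound, 12 of 41 cell cycle and 3 of 21 senescence genes. Among all tested genes 2919 of 21472 were under it. In the cell cycle list 14 of 41 genes did not overlap between genotypes, against 15.9% of all tested genes. DESeq2 called 0 in these lists. ORE1, the senescence factor whose promoter drives the reporter, stood at 37.8, 33.1 and 26.2 CPM in eur1-11 against 21.9, 26.3 and 28.2 CPM in WT (log2 fold change 0.34; edgeR, adjusted p = 0.202), with overlap.

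In 9 further lists, among them nitrogen, cytokinin, ethylene and guard cell genes, 1 gene each was called, 9 of 170 tested genes (5.29%), against 1.8% of all tested genes. These lists were picked for holding 1 called gene, so the share says nothing about them. NIA1, a nitrate reductase, was read at 141.3, 107.7 and 103.3 CPM in eur1-11 and at 46.0, 47.2 and 64.4 CPM in WT (log2 fold change 1.16 ± 0.23; edgeR, adjusted p = 0.0148). HT1, a kinase of stomatal movement, stood at 2.63, 2.75 and 2.11 CPM in eur1-11 against 1.195, 1.155 and 0.88 CPM in WT (1.21 ± 0.18; adjusted p = 0.00234). Neither gene overlapped between genotypes. The ethylene-pathway F-box gene EBF2 (0.54) and the clock gene PRR5 (0.51) were higher. The cytokinin response regulator ARR4 (-0.83), the salicylate hydroxylase gene DMR6 (-0.60), the phosphate exporter PHO1 (-0.66), the phenylalanine ammonia-lyase PAL4 (-0.68) and the cambium receptor PXY (-0.36) were lower. Without the replicate block 0 of the 9 passed, and with a block common to all times, or without replicate 1 or replicate 2, only HT1 did. NIA1, for example, had adjusted p of 0.814, 0.439, 0.218 and 0.136 in these 4 fits.

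**Figure D4:**
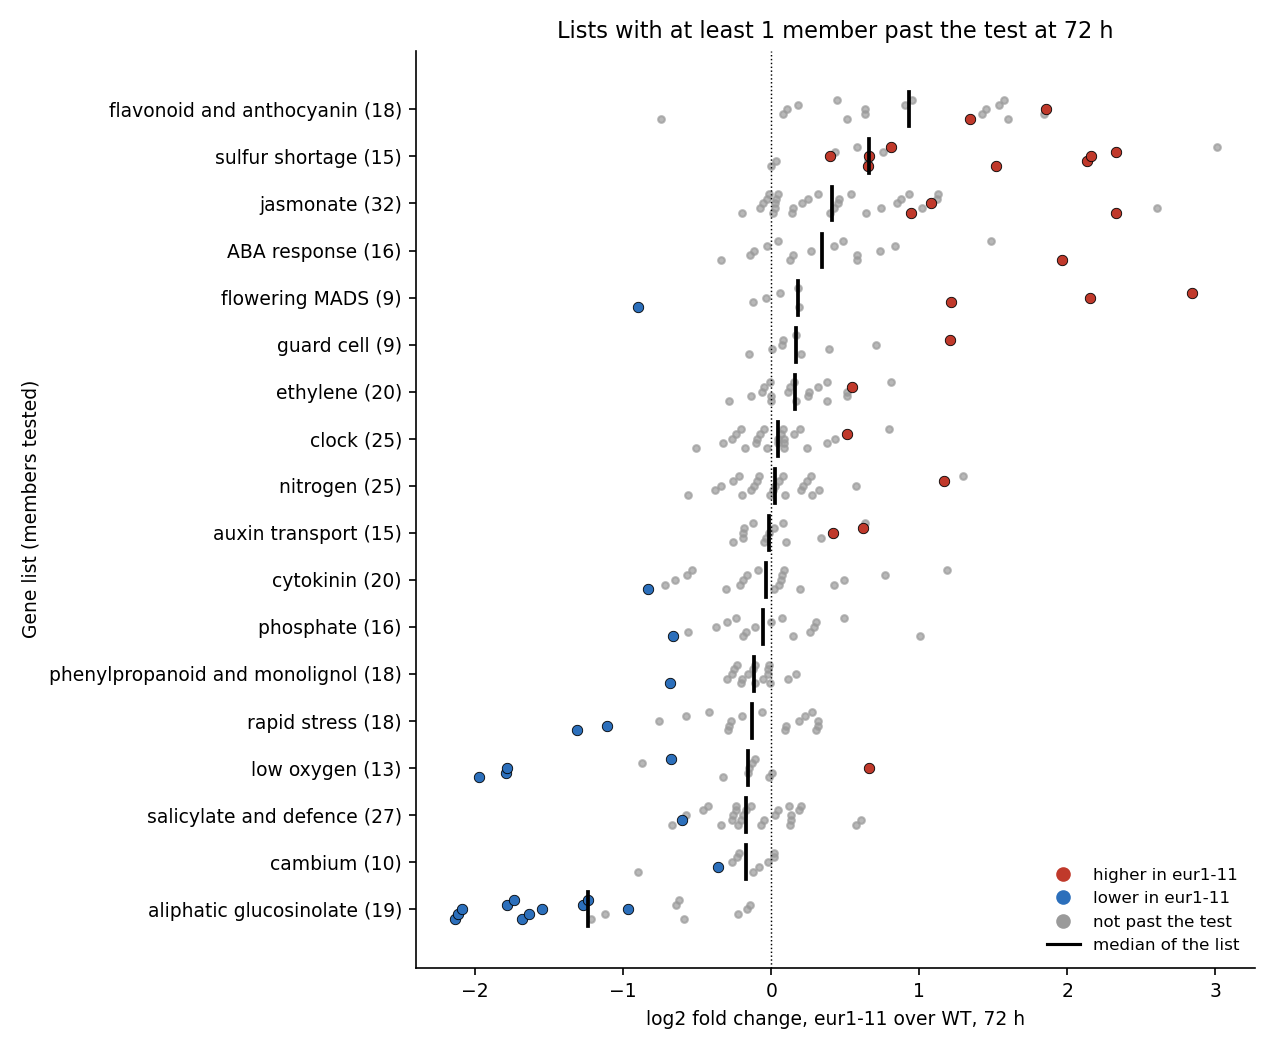
Log2 fold change at 72 h, eur1-11 over WT, of each tested member of the 18 lists with at least 1 called gene, with the list's tested members in brackets. Red points were higher, blue points lower and grey points did not pass, and the black bar is the list's median, which runs from 0.93 for flavonoid and anthocyanin genes to -1.24 for aliphatic glucosinolate genes.

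Markers of the cell types in a petiole were summed. These cell types are not particular to the petiole, so the sums do not check which part of the leaf was taken. Markers of xylem, phloem, epidermis, guard cells and cambium were all read, and nuclear photosynthesis genes summed to 12820 to 14640 CPM in eur1-11 and 11170 to 14970 CPM in WT. Xylem markers summed to 94.9 to 235.3 CPM in eur1-11 and 99.8 to 217.2 CPM in WT, and phloem markers to 497.8 to 610.2 CPM in eur1-11 and 505.0 to 679.5 CPM in WT. The sums separated for epidermis and wax markers, at 260.7 to 286.3 CPM in eur1-11 against 233.5 to 252.4 CPM in WT, and for cambium markers, at 189.2 to 195.5 CPM against 204.0 to 231.4 CPM in WT. Root identity markers, of which 4 of 12 were tested, separated too, at 17.37 to 19.56 CPM in eur1-11 and 21.2 to 22.6 CPM in WT. Guard cell sums overlapped, at 22.09 to 26.3 CPM in eur1-11 and 18.58 to 22.8 CPM in WT. Among single tested genes 15.9% did not overlap, and a difference in cell types was not tested. The part of these sums in the results above was not tested. In edgeR 0 of 5 reference genes, 0 of 36 photosynthesis genes, 0 of 20 xylem, 0 of 10 phloem, 0 of 17 suberin, 0 of 11 epidermis, 0 of 4 root identity and 0 of 10 heat shock genes passed. In that order 0, 1, 2, 1, 3, 1, 2 and 2 had an unadjusted p under 0.05, as did 2919 of all tested genes, and DESeq2 called 0 in each list.

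The called genes were spread over the genome. Called shares were 1.59% on chromosome 1, 2.11% on chromosome 2, 1.98% on chromosome 3, 1.77% on chromosome 4 and 1.78% on chromosome 5. Within 1 Mb of EAR1 3 of 420 tested genes were called (0.714%). Adjacent tested genes called in the same direction formed 19 pairs, 18 of them higher. They included LSU3 with LSU1, MAF4 with MAF5, PDF1.3 with PDF1.2b and, as the lower pair, CYP79F2 with CYP79F1.

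The differences at 72 h were set beside those at the other times. At 96 h 586 genes were called, and 244 genes were called at both times, which is 63.2% of the 72 h genes and 41.6% of the 96 h genes. Those called at 96 h were 2.73% of tested genes, at 48 h 2.51%, at 24 h 2.37% and at 0 h 10.5%. The genes shared with 0, 24 and 48 h numbered 107, 150 and 157 of the 386. The sign was the same in 385 of 386 genes at 96 h, 346 at 48 h, 360 at 24 h and 280 at 0 h. In 38 genes the same call was made at all 5 times, 32 higher and 6 lower, among them LSU1, LSU3, SDI1, FLC, MAF4, MAF5, SOC1, CBF1 and AT2G01422. Only 72 h had the call in 60 genes, and 90 were called at 72 and 96 h and not before.

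The aliphatic glucosinolate list had 5, 3, 0, 11 and 12 lower members at the 5 times in order. The sulfur shortage list had 6, 9, 3, 8 and 7 higher members at those times, and the jasmonate list had 17, 16, 18, 3 and 1. The flowering list had 3 higher and 1 lower at every time. Over all tested genes 6.92, 1.6, 1.56, 1.1 and 1.72% were higher and 3.63, 0.764, 0.955, 0.694 and 1.01% lower at these times. PDC1 had log2 fold changes of 1.05, 0.09, 0.00, -1.98 and -1.86 in the same order. A difference between counts of calls does not show that times differ, and the difference itself was tested. For the genotype difference at 72 h against the mean of the other 4 times 0 genes passed in edgeR, with 1259 at an unadjusted p under 0.05 and 6 called by DESeq2. Against the mean of 48 and 96 h 0 genes passed in edgeR, with 730 at an unadjusted p under 0.05 and 0 called by DESeq2. Without replicate 3 at any time, a fit added after the values were seen, these numbers were 270 and 38.

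**Figure D5:**
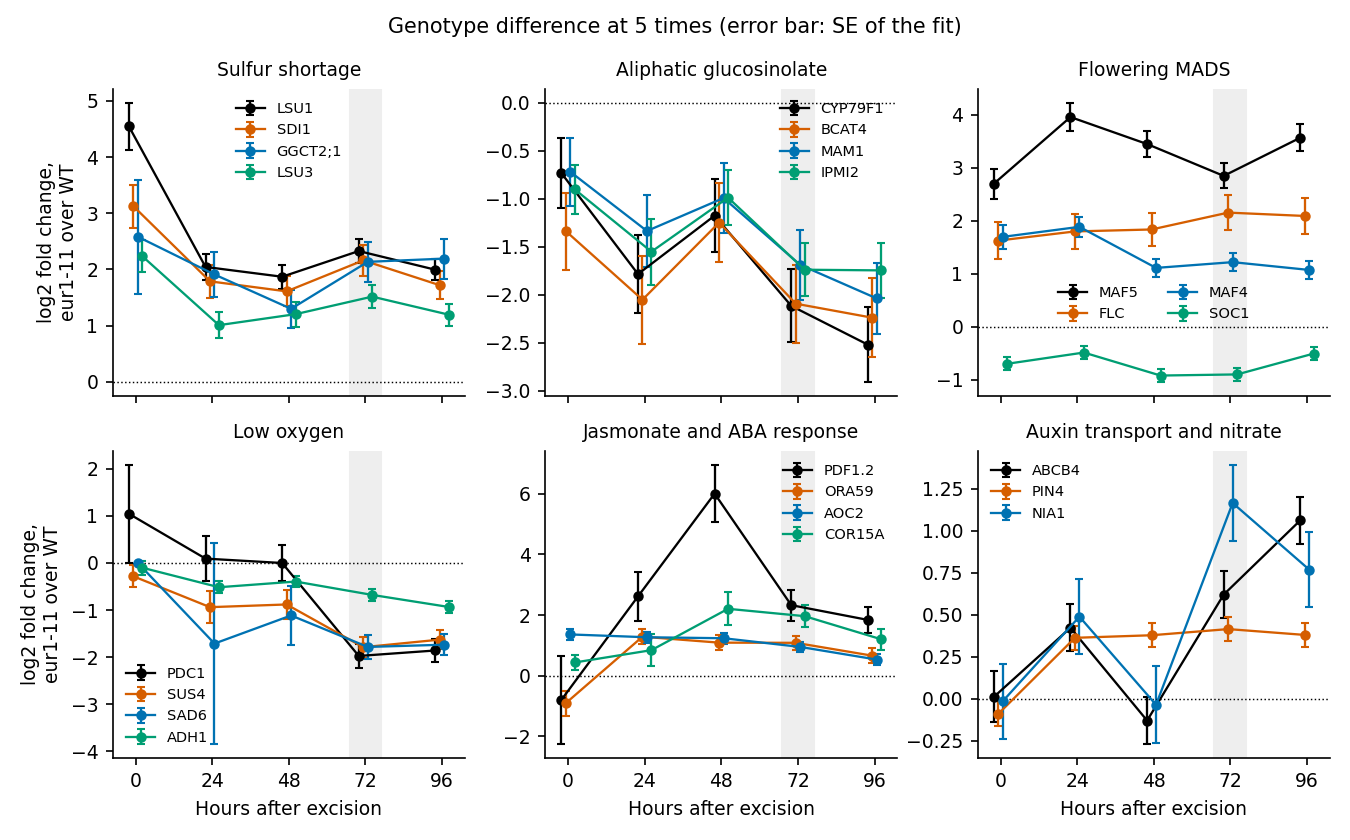
Log2 fold change, eur1-11 over WT, at the 5 times after excision for genes of 6 groups, with the SE of the fit as error bars, 72 h shaded and 0 marked by a dotted line. FLC, MAF4 and MAF5 stay above 0 and SOC1 below it at all 5 times, the 4 sulfur shortage genes stay above 0, and PDC1 is near 0 at 24 and 48 h and at -1.98 at 72 h.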

How the data were processed

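RNA of petiole regions was sequenced on an Illumina NovaSeq instrument. The authors checked reads with FastQC, mapped them onto TAIR10 using STAR and produced counts per gene by HTSeq. The deposited counts are raw, without normalization or pooling. For strand, and for tool versions, the setting was not given in the sources used here, so a gene and an antisense neighbour cannot be told apart. Rows for reads outside genes, 6.448 to 9.185% of each library, were left out.

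All 30 libraries were fitted in edgeR 4.0.16 (R 4.3.3) by quasi-likelihood F tests with TMM scaling and filterByExpr by group, which left 21472 of 33602 genes. The model had 15 blocks of time and replicate number and 1 genotype term per time, with 10 residual degrees of freedom. The study's methods entered the replicate number as a factor, without saying whether within each time, and 1 factor common to all times was an alternative. P-values were adjusted by Benjamini-Hochberg and called under 0.05. The SE is the size of the log2 fold change over the root of its F statistic. Folds against 0 counts used a floor of 3 counts, which covers counting error only. At 72 h the deviations of equal-numbered libraries correlated at 0.315, 0.469 and 0.681 over 16257 genes. Replicates 1 and 2 also correlated across numbers, at 0.334 and 0.57, so the correlations do not tell these pairs apart and the pairing follows the label numbers.

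Gene names and positions came from RefSeq TAIR10.1, where 97.7% of identifiers were found. The 37 gene lists and the choice of this comparison were made with earlier results of these data known, and 18 of 700 list entries with no matching symbol were left out. The rule for named genes took EAR1, YUC8, YUC9, PIN2 and WOX11, the 12 highest and 12 lowest log2 fold changes among called genes with at least 5 CPM in the higher genotype and 1 direction in the 3 pairs, and in each list up to 4 called members, or the 2 with the smallest p where none passed. Other members and genes were named after their values were seen. The fit was tested on simulated data. Alternatives were other scalings and filters, no organelle genes, other blocks, fewer libraries, leaving out each replicate, and DESeq2 1.42.0.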

Additional observations from a re-analysis of the deposited data

How the results depend on the processing

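The 386 calls (237 higher, 149 lower) changed most with how replicates were handled. Without the replicate block 66 genes passed, 61 higher and 5 lower, and 39 of the named genes lost their call. With a block common to all times 103 passed, 90 higher and 13 lower, and 32 of the named genes lost their call. Leaving out 1 replicate gave 82 to 276 calls, 60 to 194 of them higher and 22 to 82 lower. Fitting only the 6 libraries of 72 h gave 617, 409 of them higher. A fit without replicate 3 at any time, added after the values were seen, gave 2080 calls, 1274 higher and 806 lower, and 270 and 38 for the differences between times. The cause of these shifts was not tested.

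Scaling, filter and tool mattered less. RLE, total-count and upper-quartile scaling gave 374, 373 and 389 calls, no filter 450, at least 1 CPM in 3 libraries 302, no organelle genes 405 and DESeq2 552, with 6 genes called by DESeq2 for 72 h against the other times. The share of calls that were higher was 61.4%, against 92.4% without the block, 87.4% with the common block and 67.9% with RLE scaling. Where tested, no called gene changed sign in any of the 14 alternatives, but these reuse the same libraries, so kept signs add no support. EAR1 at 72 h passed in none of the 14, with values from -0.327 to -0.222. Genes under 1 CPM rest on few counts, which limits the size of their folds.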

Other observations

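Further called genes, chosen after their values were seen, lay outside the lists. ATP sulfurylase genes, which activate sulfate, moved apart, with APS3 at 53.4 ± 11.9 CPM in eur1-11 and 27.5 ± 0.312 CPM in WT (log2 fold change 0.94) and APS2 at 41.5 ± 1.597 CPM in eur1-11 and 49.0 ± 2.14 CPM in WT (-0.24; SD, n = 3 each). AT4G31290, a ChaC-like gene of the GGCT family, was higher by 1.25. MGL, which breaks down methionine, was higher by 1.12. The myrosinase TGG1, which cleaves glucosinolates, stood at 342 ± 70.0 CPM in eur1-11 and 187 ± 9.58 CPM in WT (0.86). FMO GS-OX2, a side-chain oxygenase, was higher by 0.83, while IIL1, the large isomerase subunit, was lower by 0.64 on the log2 scale.

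Transporters and cell-surface genes were also called. ABCG40, an ABA importer, stood at 225 ± 87.4 CPM in eur1-11 and 73.9 ± 21.0 CPM in WT (1.58), the potassium transporter HAK5 stood at 52.6 ± 9.72 CPM in eur1-11 and 26.5 ± 5.53 CPM in WT, and the zinc transporter ZIF1 was higher by 0.47. FRD3, a citrate exporter that keeps iron mobile, had a log2 fold change of -1.38, with overlap between genotypes. The receptor-like protein genes RLP32, RLP34, RLP39, RLP41 and RLP49 were lower, with log2 fold changes of -0.71, -0.80, -0.85, -0.77 and -0.64. The brassinosteroid synthesis genes CYP90D1 (-0.71) and BR6OX2 (-0.42) were lower as well, as was BRL2 (-0.61), a receptor-like kinase gene. Several NAC factor genes were higher, with NAC058 at 1.29, NAC3 at 1.01, NAC045 at 0.73 and NAC046 at 0.65. The receptor-like, brassinosteroid and NAC genes named here are called members picked from larger groups. Members not called or going the other way were not counted, so no shift of a whole group is shown.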
